A study of Mus musculus with 2 samples.

Results

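Transcripts of 34 genes that sense unfolded protein in the endoplasmic reticulum (ER), fold secretory proteins or send misfolded ones to degradation were compared in mouse liver. They were chosen by role as sensors and transducers of the unfolded protein response (4 genes), Hsp70 and Hsp90 chaperones with their cofactors (9), lectin chaperones (2), oxidoreductases (5), subunits of the protein translocon (4) and factors of ER-associated degradation, ERAD (10). All 34 were found among the 18194 genes on the array by gene ID. Livers came from male mice of 12 weeks on chow, killed after 6 hr of fasting. Both groups were homozygous for a floxed allele of Lpcat3: the Flox/Flox group (Lpcat3fl/fl) carried no Cre, and the L-Lpcat3 KO group (Lpcat3fl/fl Albumin-Cre) also carried Cre under the albumin promoter, which is active in hepatocytes and leaves the floxed allele of other liver cells in place. RNA of 5 mice was pooled per group and hybridized to 1 Affymetrix Mouse Genome 430 2.0 array, so there were no replicates. No test could be run, and each ratio given here is 1 number that carries no information on how mice vary.

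The hepatocyte secretes most of the plasma proteins, and nearly all of them enter the ER through the Sec61 translocon, fold there with the help of chaperones and disulfide-forming enzymes, and leave only once folded. Proteins that fail are recognised, drawn back to the cytosol and degraded by the proteasome. When unfolded protein gathers, or when the lipid composition of the ER membrane is altered, the sensors ATF6, IRE1 and PERK signal to the nucleus and to the ribosome, and ATF6 and the IRE1 product XBP1 raise transcription of the chaperone and ERAD genes. LPCAT3 places polyunsaturated acyl chains into phosphatidylcholine, a main lipid of that membrane, and the comparison asks how these transcripts stood in liver when hepatocytes lacked the enzyme.

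Most of the 34 genes had slightly lower signals in L-Lpcat3 KO, and few of the differences were large. The values are MAS5 signals, an intensity per probe set on a linear scale, and each gene is given by its brightest probe set. A ratio is the log2 signal of the knockout pool less that of the Flox/Flox pool, so that a negative ratio is a lower signal in the knockout pool. Every gene of the group lay above the floor of 76.4, the median of all signals, in both pools. In 27 of 34 the ratio was below 0 (79.4%), beside 49.3% of the 12084 genes measured and 51.1% of the 6817 genes whose signals, like those of all 34, exceeded the 75th percentile (387) in both pools. The median ratio was -0.12 and the values ran from -0.77 to 0.21, whereas the median of all measured genes was 0.0030. Derl3, a derlin of the ERAD pathway, was the 1 gene at least 1.5-fold lower, a size reached by 3.19% of measured genes, and none was at least 1.5-fold higher, against 4.04% of measured genes. Among the 6817 genes above the 75th percentile these sizes were rarer, 0.733% lower and 0.748% higher, and a count of 0 higher among 34 is near that share. The other 33 lay within 1.5-fold. In the same pools all 12 markers of Kupffer cells and macrophages were lower as well, with a median of -0.28, and their part in the ratios of the 34 genes was not tested. In the cumulative plot of ratios the curve of the 34 genes lies above that of all measured genes from a ratio of -0.40 upward and crosses it at lower ratios. At -0.40 it stands at 8.82%, against 7.29% of all measured genes and 2.74% of the genes above the 75th percentile.

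**Figure D1:**
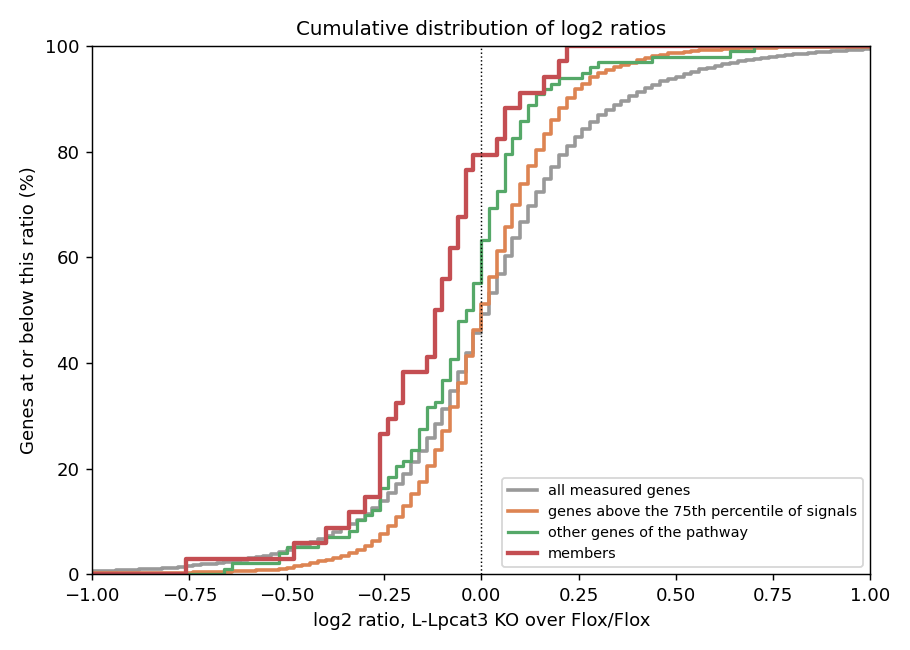
Cumulative share of genes (%, y axis) at or below each log2 ratio (x axis, knockout pool over Flox/Flox pool) for the 34 genes of ER folding and ERAD (red), 98 other genes of the pathway (green), genes above the 75th percentile of signals in both pools (orange) and all 12084 measured genes (grey), with 1 pool per genotype. The red curve reaches 79.4% at a ratio of 0, where the grey curve stands at 49.3%.

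The promoters of these genes are known for the ER stress response element (ERSE), at which ATF6 and XBP1 act together with the CCAAT-binding factor NF-Y. Promoter windows of 300 bases, 250 before and 50 after the start, were taken from RefSeq (mouse build GRCm38.p6) and were found for 29 of the 34 genes; Atf6, Hyou1, Manf, Sec61a1 and Derl1 had no window here. The ERSE letters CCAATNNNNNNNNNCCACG, read on both strands, were present in 10 of the 29 (34.5%) and in 0.119% of the 32851 windows of all genes. The second form of the element, ERSE-II (ATTGGNCCACG), was present in Dnajb11 and Herpud1, and in 0.0365% of all windows. The XBP1-type element UPRE (TGACGTGG) was in 0 of 29 and in 0.676% of all windows. The group was counted by gene and the background by window, and the background includes the group's own windows. ERSE and ERSE-II share the CCAAT and CCACG letters, but no window of the group held both. The stretches below show 6 of these promoters, chosen because they belong to the central chaperones, to the ERAD ligase, and to the ERAD genes with the lowest and the highest ratio. They are written from 5′ to 3′ on the strand of the gene, and capitals mark the fixed letters of the element (CCAAT and CCACG, or their complements ATTGG and CGTGG).
Hspa5 promoter (chr2:34772005-34772063, plus strand): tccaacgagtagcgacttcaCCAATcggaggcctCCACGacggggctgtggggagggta
Hsp90b1 promoter (chr10:86705513-86705676, minus strand): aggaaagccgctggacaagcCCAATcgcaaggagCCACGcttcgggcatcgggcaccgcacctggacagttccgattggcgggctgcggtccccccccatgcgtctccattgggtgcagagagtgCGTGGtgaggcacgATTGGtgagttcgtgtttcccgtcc
Calr promoter (chr8:84847055-84847113, minus strand): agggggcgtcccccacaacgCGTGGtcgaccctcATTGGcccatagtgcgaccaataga
Syvn1 promoter (chr19:6046512-6046570, plus strand): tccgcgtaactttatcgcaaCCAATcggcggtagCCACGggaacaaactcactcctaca
Derl3 promoter (chr10:75893222-75893280, plus strand): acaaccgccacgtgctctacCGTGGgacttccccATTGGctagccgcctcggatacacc
Herpud1 promoter (chr8:94386357-94386407, plus strand): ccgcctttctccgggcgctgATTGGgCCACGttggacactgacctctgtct
Hsp90b1 held 2 copies of ERSE, in opposite orientation, beginning 212 and 107 bases upstream of the start. In Hspa5 the element began 65 bases upstream and in Syvn1 44 bases upstream. In Calr and Derl3 it read in the reverse orientation. The Herpud1 element is of the second form and began 52 bases upstream. By their brightest probe sets, all 10 genes with ERSE had ratios below 0, with a median of -0.17. Hspa5, Hsp90b1 and Calr among them each had another probe set above 0 (0.24, 0.12 and 0.07). Of the 19 genes with a window but without ERSE, 14 had ratios below 0, with a median of -0.06. Of all measured genes 49.3% were below 0. The genes without any element include Dnajb9 (-0.49) and Sdf2l1 (-0.41), which were among the lowest of the 34. The spread of single genes exceeded that difference, and a match of letters does not show that a factor was bound.

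The sensors are the membrane proteins that report on the folding state of the ER, and their transcripts differed little between the pools. Atf6, the precursor of a transcription factor that is cut free in the Golgi, was 2267 in the Flox/Flox pool and 2630 in the knockout pool (log2 ratio 0.21), the highest ratio of the group. Its dimmer probe sets did not share that direction, with ratios of -0.04 and -0.60. Ern1, which encodes the kinase and endoribonuclease IRE1, gave 3104 and 3045 (-0.03). Eif2ak3, which encodes the eIF2α kinase PERK, gave 741 and 610 (-0.28) in its only measured probe set. Xbp1, the messenger that IRE1 splices, gave 18251 and 16808 (-0.12), and 3 of its 4 probe sets were below 0, with the remaining one at 0.11. These signals do not separate spliced from unspliced Xbp1. The class had 3 of 4 ratios below 0 and a median of -0.07, which became -0.18 with the mean over probe sets and 0.04 without probe sets that can match several transcripts.

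Among the Hsp70 and Hsp90 chaperones and their cofactors, the lowest ratios were those of Dnajb9, Sdf2l1 and Manf. The chaperones Hspa5 and Hsp90b1 had lower signals in the knockout pool by their brightest probe sets, though not by all, and Hyou1 had higher ones. Hspa5, which encodes the Hsp70 BiP, was 19281 in the Flox/Flox pool and 18397 in the knockout pool (log2 ratio -0.07), with other probe sets at -0.11 and 0.24. Hsp90b1, the Hsp90 GRP94, was 19777 and 16430 (-0.27), although its second probe set, at a signal of 2475 in Flox/Flox, had a ratio of 0.12. Hyou1, a large Hsp70 relative that exchanges nucleotide on BiP, was 3226 and 3559 (0.14) and was the 1 gene of this class above 0.

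J-domain proteins bring substrates to BiP and set off its ATPase. Dnajb9 (ERdj4), which also binds the sensor IRE1, was 8071 in the Flox/Flox pool and 5728 in the knockout pool, 1.41-fold lower (log2 ratio -0.49), in its only probe set. Dnajb11 (ERdj3), a secreted cofactor of BiP, was 1888 and 1610 (-0.23). Dnajc3 (P58IPK), which also restrains PERK, was 6044 and 5249 (-0.20), and all 5 of its probe sets were below 0, from -0.57 to -0.04. Sdf2l1, which forms a complex with ERdj3, was 1336 and 1003, 1.33-fold lower (-0.41). The secreted stress proteins Manf and Creld2 complete the class. Manf was 4679 and 3697 (-0.34), and Creld2 was 2358 and 2162 (-0.13). The class had 8 of 9 ratios below 0 and a median of -0.23, the lowest of the 6 classes. With the second brightest probe set, which only Hspa5, Hsp90b1, Hyou1 and Dnajc3 have, the median was -0.03.

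**Figure D2:**
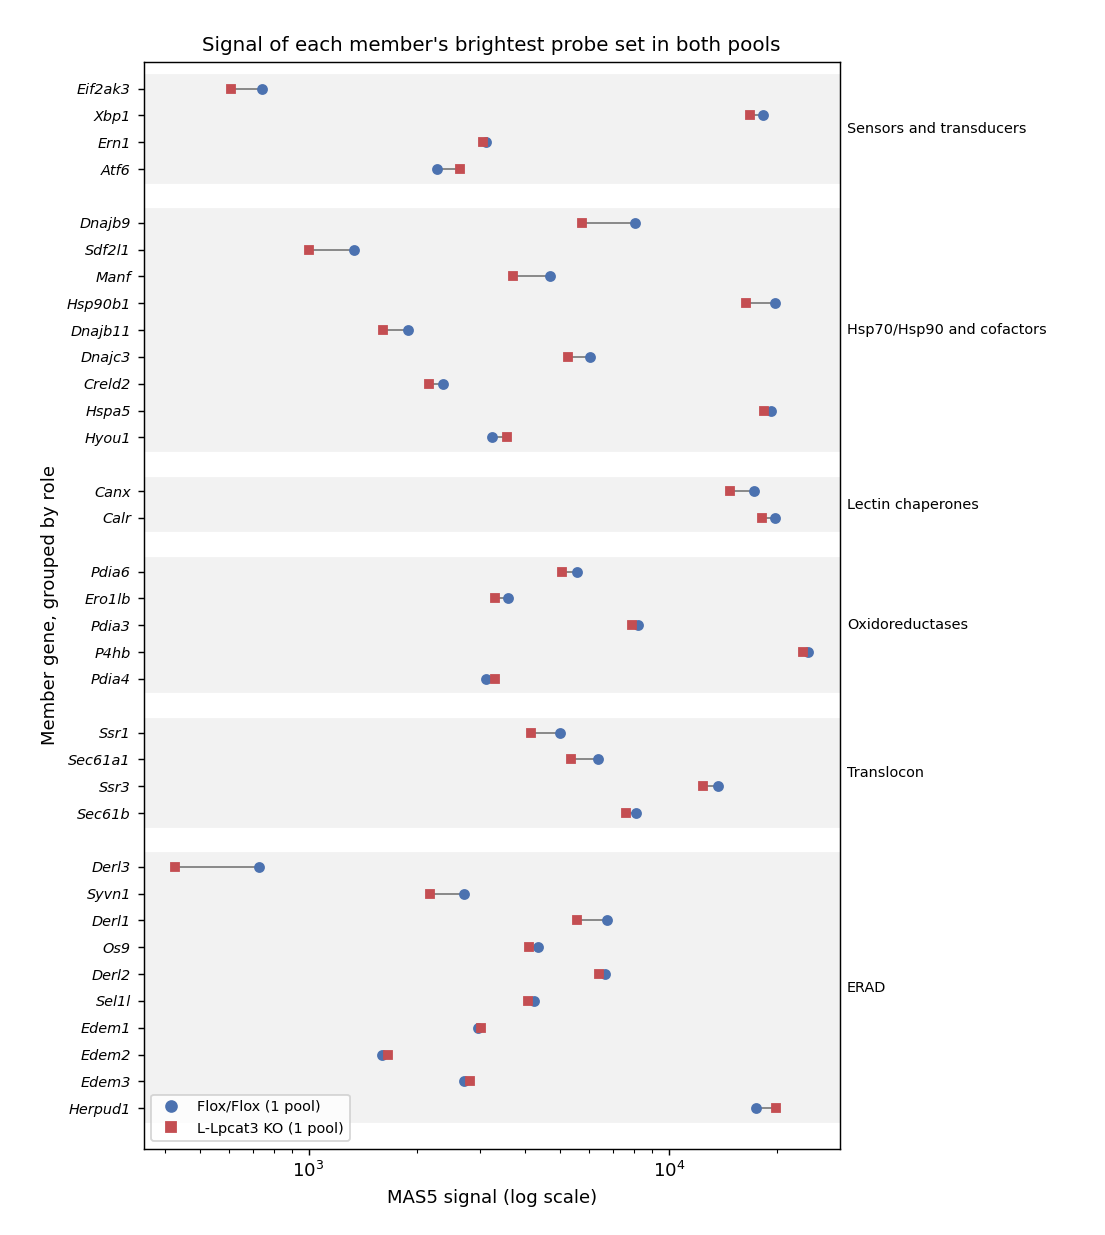
MAS5 signal (log scale, x axis) of the brightest probe set of each of the 34 genes (y axis, grouped by role) in the Flox/Flox pool (blue circles) and the L-Lpcat3 KO pool (red squares), with a line joining the 2 values. Each point is 1 array of 5 pooled livers and has no error bar; red lies to the left of blue for 27 genes, with the longest line at Derl3 (727 and 427) and the next longest at Dnajb9 (8071 and 5728).

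The lectin chaperones hold glycoproteins that carry a last glucose until they are folded. Calr, the soluble calreticulin, was 19716 in the Flox/Flox pool and 18104 in the knockout pool (log2 ratio -0.12), with other probe sets at -0.07 and 0.07. Canx, the membrane-bound calnexin, was 17208 and 14790 (-0.22), and all 3 of its probe sets were below 0. Both lay within 1.5-fold, and with their second brightest probe sets the class median was -0.0056.

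The oxidoreductases make and reshuffle disulfide bonds, and they showed the smallest spread of all classes apart from the lectin chaperones and the translocon. P4hb, which encodes protein disulfide isomerase itself, was 24375 in the Flox/Flox pool and 23638 in the knockout pool (log2 ratio -0.04), a sign that turned to 0.01 after quantile normalization. Pdia3 (ERp57), the partner of the lectin chaperones, was 8224 and 7881 (-0.06). Pdia4 (ERp72) was 3103 and 3294 (0.09), and Pdia6 (P5) was 5577 and 5062 (-0.14). The 4 disulfide isomerases therefore lay between -0.14 and 0.09. Ero1lb, now Ero1b, the oxidase that recharges them, was 3581 and 3297 (-0.12). A dimmer Ero1lb probe set was 567 and 343 (-0.73), so the size of its difference depended on the probe set. The class had 4 of 5 ratios below 0 and a median of -0.06.

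The translocon was the class, besides the lectin chaperones, in which every gene was lower in the knockout pool. Sec61a1, the channel-forming subunit, was 6368 in the Flox/Flox pool and 5342 in the knockout pool (log2 ratio -0.25). Its 6 probe sets ran from -0.68 to 0.35, and 5 of them were below 0. Sec61b, a small subunit of the channel, was 8132 and 7606 (-0.10). Ssr1 and Ssr3 encode the α and γ subunits of the translocon-associated protein complex, which helps some signal sequences to enter the channel. Ssr1 was 4978 and 4145 (-0.26), and all 4 of its probe sets were below 0. Ssr3 was 13723 and 12475 (-0.14), and both of its probe sets were below 0. The class median was -0.20.

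The ERAD genes split into those with lower signals and those at or slightly above the Flox/Flox level. Syvn1 encodes HRD1, the membrane ubiquitin ligase of the pathway, and was 2700 in the Flox/Flox pool and 2177 in the knockout pool (log2 ratio -0.31), with its other probe set at -0.14. Sel1l, the partner that stabilises HRD1, was 4219 and 4073 (-0.05), but 3 of its 5 probe sets were above 0, up to 0.45. Os9, a lectin that hands misfolded glycoproteins to this complex, was 4346 and 4105 (-0.08), with its other probe set at -0.45. The derlins are membrane proteins through which substrates leave the ER. Derl1 was 6731 and 5547 (-0.28), and 3 of its 4 probe sets were below 0. Derl2 was 6633 and 6395 (-0.05). Derl3 was 727 and 427, 1.70-fold lower (-0.77), and this value rests on 1 probe set. Its promoter and that of Syvn1, both shown above, hold an ERSE. That of Derl2 had no match, and Derl1 had no window. A link between these elements and the ratios was not tested.

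The EDEM proteins trim mannose from glycoproteins and thereby mark them for ERAD, and their transcripts were nearly level. Edem1 was 2948 in the Flox/Flox pool and 3008 in the knockout pool (log2 ratio 0.03). Edem2 was 1603 and 1657 (0.05), and Edem3 was 2699 and 2806 (0.06), though the second probe sets of Edem1 and Edem3 were at -0.06 and -0.36. Herpud1, a membrane protein of the HRD1 complex and the ERSE-II gene shown above, was 17451 and 19868 (0.19), and its other probe set was also above 0 (0.05). In all, 6 of 10 ERAD ratios were below 0 and the class median was -0.05, with Derl3 and Herpud1 at the ends. Herpud1 and Hyou1 were the genes of the group with 2 measured probe sets that were both above 0; a further Hyou1 probe set lay below the floor in both pools (62.1 and 43.9).

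**Figure D3:**
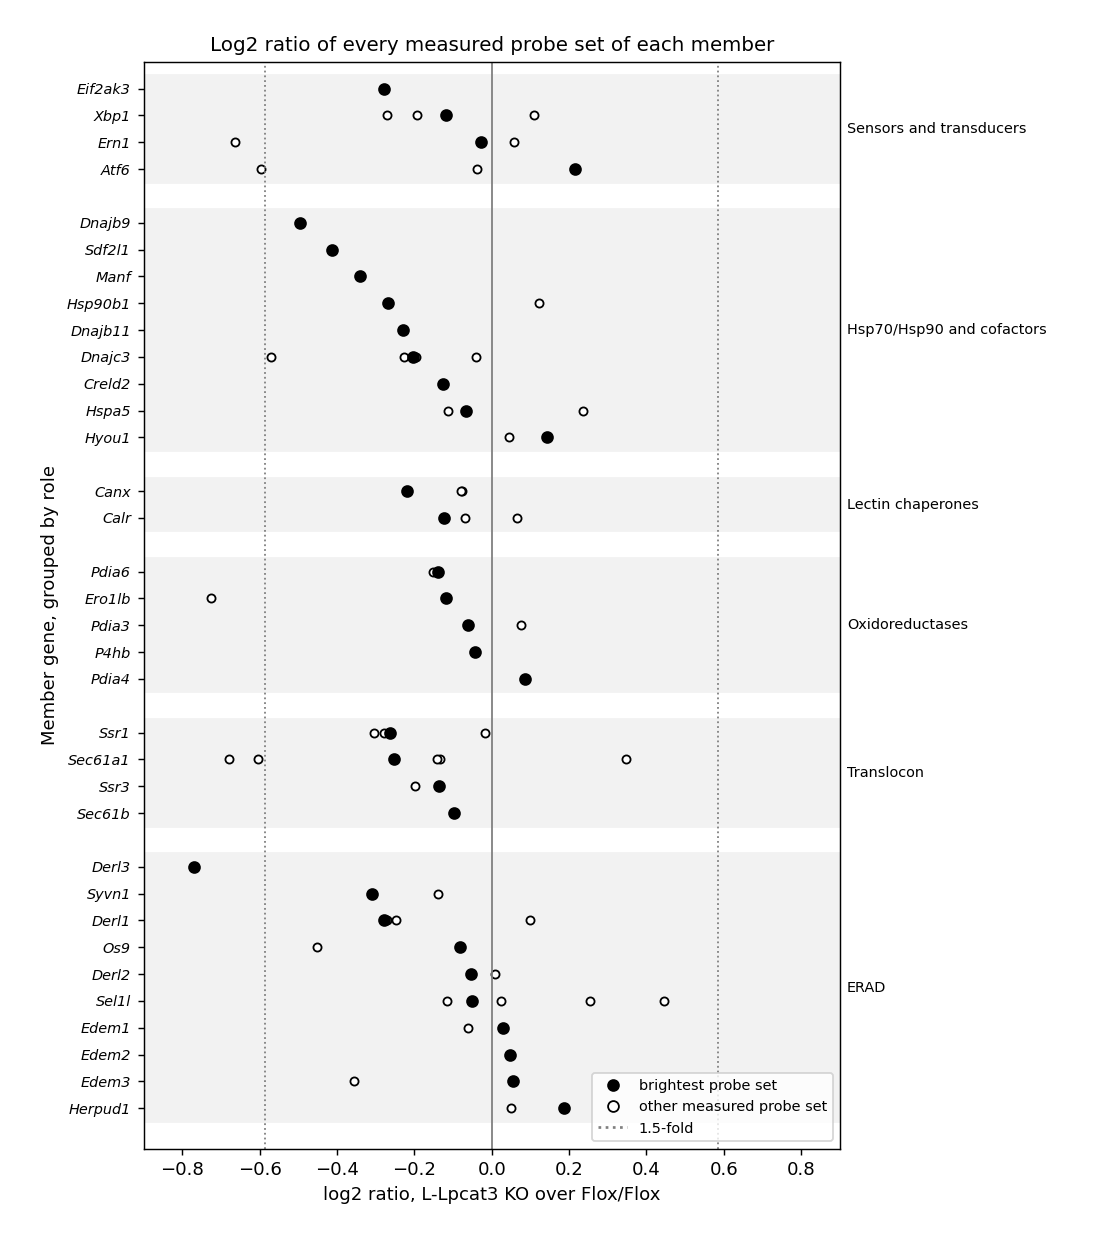
Log2 ratio (x axis, knockout pool over Flox/Flox pool) for each of the 78 measured probe sets of the 34 genes (y axis, grouped by role), with the brightest probe set of each gene filled and the others open; the solid line marks 0 and dotted lines mark 1.5-fold. Of the probe sets 57 lie to the left of 0 and 21 to the right, and no probe set passes the 1.5-fold line on the right.

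Several probe sets read the same transcript on these arrays, and they give the only internal gauge of error. The 34 genes had 86 probe sets of their own, of which 78 were measured, each with both signals over the floor, and 8 genes had 1 probe set each. Of the 78, 57 lay below 0 (73.1%, against 49.3% of the 20650 measured probe sets on the array), and 6 of these were lower by 1.5-fold or more (7.69%, against 3.62%). Apart from that of Derl3, these 6 were dimmer probe sets of Atf6, Ern1, Ero1lb and Sec61a1. The brightest probe sets of those genes ran from -0.25 to 0.21. Probe sets of 1 gene are not independent of each other. Among the 23 genes with 2 or more measured probe sets, 8 (34.8%) were below 0 in every one, against 20.2% of the 5166 such genes on the array. These were Dnajc3, Canx, Pdia6, Ero1lb, Ssr1, Ssr3, Syvn1 and Os9. In 2 genes (8.70%) all measured probe sets were above 0, against 21.3%, and the other 13 were mixed (56.5%, against 58.5% of all such genes). Where the 2 brightest probe sets of a gene both exceeded the 75th percentile in both pools, their ratios differed by a median of 0.09 in 18 genes of the group and of 0.14 in the 2139 such genes on the array, with a 90th percentile of 0.40 there. Dnajb9, Sdf2l1 and Derl3 were lower by more than 0.40 (8.82% of the group, against 2.76% of the genes above the 75th percentile in both pools), and no gene was higher by as much. Each of these genes has only 1 probe set, so its own ratio could not be checked against a second reading. Against the median difference of 0.14 on the array, 13 genes were lower by more (38.2%, against 20.3% of the genes above the 75th percentile), 3 were higher by more (8.82%, against 19.6%), and 18 lay within it. This gauge covers probe behaviour within a pair of arrays and not the variation among mice.

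The share of probe sets below 0 was set against the array within bands of signal. Of the group's probe sets over 3000 in mean signal, 27 of 32 were below 0 (84.4%), against 53.3% of the 2355 probe sets of all genes in that band. Between 387 and 3000 it was 21 of 34 (61.8%), nearer to the 50.6% of all probe sets there, with a median of -0.08 and an SD over these probe sets of 0.28. From the floor to 387 it was 9 of 12, against 48.0%, a band with few probe sets, several of them of the same genes. The median ratio in the brightest band was -0.12 for the group and -0.01 for all probe sets.

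The ER stress markers that the study displays come mostly from this group. Of these 10 genes (P4hb, Hspa5, Hsp90b1, Ddit3, Edem1, Edem2, Edem3, Xbp1, Herpud1 and Ero1a), 4 had ratios below 0 and 6 above, beside 49.3% of all measured genes below 0. Their median was 0.04, with a range from -0.27 to 0.25. None reached 1.5-fold. Ddit3, which encodes the stress factor CHOP, was 317 in the Flox/Flox pool and 376 in the knockout pool (0.25). Ero1a, the other ER oxidase, was 996 and 1063 (0.09). The genes of the wider group that are not on that display include the cofactors, translocon subunits and derlins with the lowest ratios. They also include Atf6 (0.21), Hyou1 (0.14) and Pdia4 (0.09), whose ratios were above 0.

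Other genes of the pathway were taken from lists of their roles, 102 in all, of which 98 were measured. Ratios were below 0 in 62 (63.3%, against 49.3% of all measured genes) and above 0 in 36, with a median of -0.04. The 1.5-fold size was reached by 2 of the 98 in each direction, against 3.19% lower and 4.04% higher among all measured genes. Other folding enzymes and cofactors had 18 of 26 below 0 and a median of -0.05. Ppib, an ER prolyl isomerase, was 17467 in the Flox/Flox pool and 15364 in the knockout pool (-0.19), and the selenoprotein Selenof was 9726 and 8646 (-0.17). Other ERAD genes had 17 of 25 below 0 and a median of -0.03. Vcp, the ATPase that pulls substrates out of the membrane, was 11781 and 11552 (-0.03). Marchf6, a ubiquitin ligase of the ER membrane, was 8205 and 8460 (0.04). The list of targeting, translocation, signal peptidase and oligosaccharyl transfer had 19 of 27 below 0 and a median of -0.07. Rpn1, a subunit of the oligosaccharyltransferase, was 11032 and 10172 (-0.12), and Spcs1, of the signal peptidase, was 10781 and 10838 (0.01). The other subunits of the translocon-associated complex were Ssr2, at 1614 and 1275 (-0.34), and Ssr4, at 8974 and 8768 (-0.03).

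Among stress transcription factors, their proteases and ATF4 targets, 7 of 16 were below 0, near the 49.3% of all measured genes, and the median was 0.06. Several of them had Flox/Flox signals under 727, the lowest among the 34 genes, so the lists differ in brightness. This list held the 4 genes at least 1.5-fold apart, 2 in each direction, against 3.19% lower and 4.04% higher among all measured genes. Ppp1r15a (GADD34), which lets eIF2α be dephosphorylated, was 409 in the Flox/Flox pool and 657 in the knockout pool (1.61-fold higher). The stress factor Atf3 was near the floor, at 77.7 and 120 (1.54-fold higher). Asns, the asparagine synthetase and an ATF4 target, was 1241 and 777 (1.60-fold lower). Creb3l2, an ER-bound transcription factor related to ATF6, was 770 and 492 (1.56-fold lower). These genes of 1 list therefore pointed in both directions. Its brightest probe sets belonged to Cebpb, at 17247 and 16056 (-0.10), and to the liver factor Creb3l3, at 8243 and 8927 (0.11). Of 4 measured substrates of IRE1-dependent RNA decay, 1 was below 0 and the median was 0.06. Among these, Hgsnat was 1636 and 1763 (0.11) and Pdgfrb, which also marks stellate cells, was 244 and 293 (0.27).

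**Figure D4:**
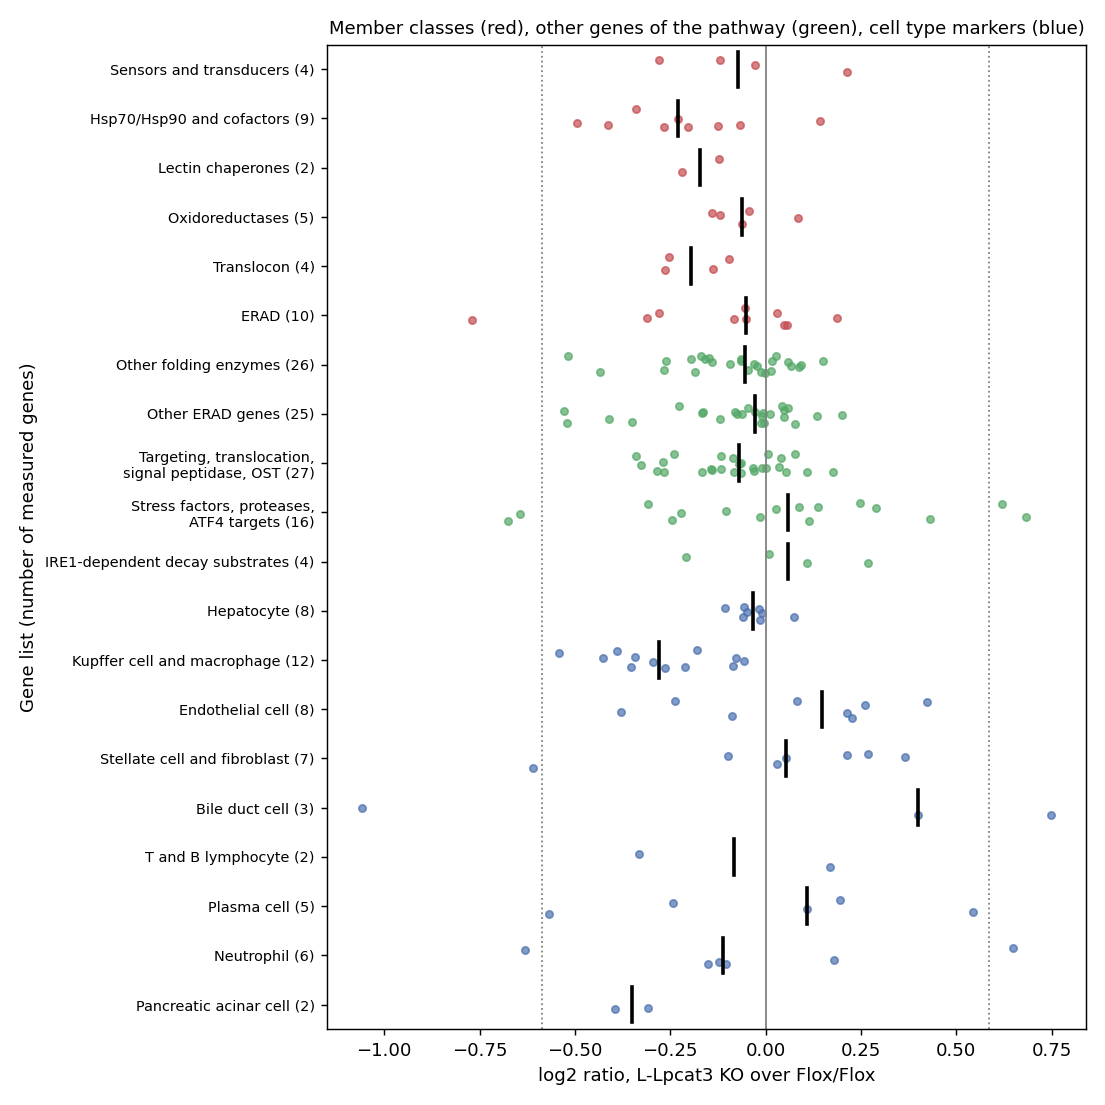
Log2 ratio (x axis, knockout pool over Flox/Flox pool) for every measured gene of the 6 classes (red), of 5 lists of other genes of the pathway (green) and of 9 lists of cell type markers (blue), with a black bar at the median of each list, a solid line at 0 and dotted lines at 1.5-fold. The bars of the Hsp70 and Hsp90 class (-0.23) and the translocon (-0.20) lie farthest to the left among the classes, and that of the Kupffer cell and macrophage markers lies at -0.28.

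Whole liver was measured, so fewer cells of a type and less RNA per cell cannot be told apart. Hepatocyte markers were close in both pools: 7 of 8 were below 0 with a median of -0.03, and the brightest, Apoa1, was 54827 in the Flox/Flox pool and 52987 in the knockout pool. The 12 Kupffer cell and macrophage markers ranged from -0.54 to -0.06, with a summed signal of 13406 and 11596, and Csf1r at 3083 and 2921. Endothelial markers had 3 of 8 below 0 and a median of 0.15, with Clec4g at 2595 and 3038, and stellate cell markers had 2 of 7 below 0 and a median of 0.05, with Dcn at 4372 and 4537. Of the 5 bile duct markers 3 were measured, 1 below 0 and 2 above, with a median of 0.40. The one below 0 was Sox9, at 162 and 77.6 (2.08-fold lower). Of the lymphocyte markers 2 of 7 were measured, 1 below 0 and 1 above, the brightest being Cd8a at 155 and 123. Of the neutrophil markers 6 of 8 were measured, 4 below 0 and 2 above, with a median of -0.11. The brightest of these was Mpo at 124 and 80.1.

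Secretory cells other than hepatocytes carry much of this machinery, so their markers stand beside these results. Of 7 plasma cell markers 5 were measured, with 2 below 0 and a median of 0.11. Jchain was 117 and 98.8 and Mzb1 218 and 250, while Tnfrsf17 (7.12 and 7.11) and Irf4 (4.28 and 8.80) were below it. Sdc1, the brightest gene of that list, was 5575 and 3763, and hepatocytes express it too. Of 6 pancreatic acinar markers 2 were measured, both below 0. Cpa1, Cpb1 and Ctrb1 were below the floor in both pools (2.34 to 30.2), and the brightest, Cela1, was 2828 and 2285. Lpcat3 itself was 3310 and 1305 (2.54-fold lower, log2 ratio -1.34) in its 1 probe set, which may read RNA outside the deleted exon and is then a weak check of the labels. The 3′ to 5′ control ratios were 0.866 and 0.851 for the Gapdh probe sets and 2.34 and 2.32 for those of Actb, with the Flox/Flox pool first.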

How the data were processed

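RNA of 2 liver pools, 5 mice each, was read on 1 array per genotype. The values deposited are signal intensities, 1 for each probe set on each array; the submitters' processing notes name MAS5, a background-corrected summary of probe pairs on a linear scale, with no version given in the sources used here. The mean without the lowest and highest 2% of signals was 500.0 on both arrays, so they had been scaled to 1 level, and a common change of all transcripts cannot be seen. Of 45101 probe sets, 64 were controls and 34945 had 1 gene symbol in the platform annotation, updated by gene ID; 932 that list several genes (1 of them Sec61b, 92.8 and 87.7) were not used. Signals below the median of both arrays (76.4) were raised to it, and a gene was measured if 1 array lay above it. Its value was the log2 ratio of its brightest probe set. No replicates exist, so no p-value or standard error was computed, and the number of arrays limits the precision. The genes and lists were chosen with earlier results of these data known. Text names all 34 genes, Lpcat3, the study's displayed ER stress markers, of each pathway list the genes 1.5-fold apart and the 2 brightest, and of each cell list the brightest and those 2-fold apart. Ssr2, Ssr4 and the further plasma cell and acinar cell markers were added after their values were seen. Alternatives were run to the scaling, the floor and the gene summary. Sequences are from RefSeq, and protein sequences were not used here. The step was tested on simulated data, with planted changes larger than any ratio of the 34 genes and less spread than between these arrays. That test does not cover differences of the size reported here. Software was Python 3.11.15 with matplotlib 3.10.9, statsmodels 0.14.6, scipy 1.17.1, pandas 2.3.3 and numpy 2.4.6.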

Additional observations from a re-analysis of the deposited data

How the results depend on the processing

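Under 10 alternatives to the scaling, the floor and the gene summary, the median of the 34 genes stayed between -0.089 and -0.14, and the share of ratios below 0 between 69.6% and 79.4%. No gene was at least 1.5-fold higher under any of them. The scaling and floor settings moved no gene by 0.1 or more and turned 1 sign, that of P4hb. The choice of probe set mattered more. With the mean over probe sets, 8 genes moved by that much, 6 changed sign (Atf6, Hspa5, Pdia3, Edem1, Edem3 and Sel1l), and the median of the sensors became -0.18. With the second brightest probe set, 16 of 23 genes were below 0 and 8 changed sign. The medians of the Hsp70 and Hsp90 class and of the lectin chaperones became -0.035 and -0.0056. In the Hsp70 and Hsp90 class only Hspa5, Hsp90b1, Hyou1 and Dnajc3 have such a probe set, so the genes of that median changed too. The 1 gene at least 1.5-fold lower in that setting was Ero1lb in place of Derl3. Without probe sets whose names end in _s_at, _x_at or _a_at, 28 genes were left, 0 of them at least 1.5-fold lower because the Derl3 probe set was dropped, and the median of the sensors was 0.041. In 4 of 60 cases a class median moved by 0.1 or more. Over all genes, 386 were at least 1.5-fold lower and 488 higher, against 1403 and 1801 when the 25th percentile was the floor, 59 and 57 when the 75th was, 624 and 864 without a floor, and 195 and 231 with the second brightest probe set, for which fewer genes could be used. No paired analysis was possible because each genotype is 1 array.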
